A study of Mus musculus with 12 samples.

Results

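The genes of sterol and fatty acid synthesis described here are 37 mouse genes, taken by symbol from the 25655 genes listed in the deposited count tables, of which 21924 had at least 1 exon base. They comprise 8 genes of the mevalonate and isoprenoid steps, 12 of the sterol steps, 6 that regulate the sterol response or carry sterols, and 11 of fatty acid synthesis. All 37 were listed in both tables and passed the filter on low counts in every comparison. RNA was counted in 12 libraries, 3 in each of 4 groups. CKO neurospheres carried the genotype (P)RR_CKO and the title fy/cre, and control neurospheres the genotype Wildtype and the title fy/-. Both were floating cultures of primary neural stem cells taken from the forebrain at embryonic day 16. CKO whole brains (fy/cre) and control whole brains (fy/-) were taken at embryonic day 15. All 4 groups are labelled male and C57BL/6J. The CKO targets, in neural stem cells, Atp6ap2, the gene of the (pro)renin receptor, which serves the V-ATPase that acidifies organelles. The labels name neither the line that drives Cre nor the part of the gene that is deleted, so a whole brain may hold many cells with an intact gene. They also do not say whether libraries came from separate animals or cultures, and p-values therefore measure only the spread between these libraries.

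Cholesterol and isoprenoids are built from acetyl-CoA through mevalonate, and the developing brain makes its own cholesterol because lipoproteins do not cross the blood-brain barrier. When sterols in the endoplasmic reticulum fall, the escort protein Scap carries the membrane-bound factors Srebf1 and Srebf2 to the Golgi, where they are cut and released to the nucleus. There they switch on genes of sterol synthesis, mainly through Srebf2, and of fatty acid synthesis, mainly through Srebf1. Insig1 and Insig2 hold Scap back when sterols are plentiful, and Insig1 is itself a target of the released factors.

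Promoters are shown because released sterol regulatory element-binding proteins act there together with NF-Y, a factor that binds CCAAT boxes. RefSeq promoter windows on GRCm38.p6, each 300 bases long with 250 before and 50 after the start, were given for 30 of the 37 genes. The first is that of Hmgcs1 on the plus strand at chr13:119690101-119690400, the only one of the 30 with the sterol regulatory element TCACNCCAC. The second is that of Msmo1 on the minus strand at chr8:64733529-64733828, a sterol gene that rose in CKO neurospheres. The third is that of Fads2 on the minus strand at chr19:10101454-10101753, a desaturase gene that did not. Each is written 5′ to 3′ along its own strand, and capitals mark the sterol regulatory element and CCAAT in either orientation.
Hmgcs1: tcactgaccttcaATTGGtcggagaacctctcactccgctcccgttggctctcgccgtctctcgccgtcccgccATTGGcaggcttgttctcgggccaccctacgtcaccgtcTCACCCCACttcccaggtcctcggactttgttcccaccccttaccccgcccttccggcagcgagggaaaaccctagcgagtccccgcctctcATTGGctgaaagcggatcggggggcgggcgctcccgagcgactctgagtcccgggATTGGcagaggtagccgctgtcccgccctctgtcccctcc
Msmo1: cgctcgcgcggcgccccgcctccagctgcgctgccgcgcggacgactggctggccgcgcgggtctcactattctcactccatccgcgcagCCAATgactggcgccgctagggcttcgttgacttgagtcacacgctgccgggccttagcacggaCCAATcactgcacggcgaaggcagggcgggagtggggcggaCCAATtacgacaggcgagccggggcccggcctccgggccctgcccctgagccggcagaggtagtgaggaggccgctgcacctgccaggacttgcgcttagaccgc
Fads2: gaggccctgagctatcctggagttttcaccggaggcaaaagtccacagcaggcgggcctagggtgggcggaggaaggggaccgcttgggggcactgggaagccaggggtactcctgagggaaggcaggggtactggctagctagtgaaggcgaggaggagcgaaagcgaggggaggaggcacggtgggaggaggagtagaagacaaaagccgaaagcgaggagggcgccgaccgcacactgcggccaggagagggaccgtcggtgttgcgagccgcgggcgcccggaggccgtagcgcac

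The Hmgcs1 window held 1 sterol regulatory element and 4 CCAAT boxes, the Msmo1 window 3 CCAAT boxes and the Fads2 window neither motif. Searched on both strands in any window of a gene, CCAAT stood in 24 of the 30 genes (80.0%), against 41.1% of 27025 genes with a window. It stood in 15 of the 18 genes called higher in CKO neurospheres that have a window (83.3%) and in 9 of the 12 not called (75.0%). The strict sterol regulatory element stood in 1 of 30 genes (3.33%), against 1.44% of all genes. The E-box CACGTG stood in 6 of 30 (20%), against 8.09% of all genes. These backgrounds cover all 27025 genes with a window and were not limited to the genes tested here. All 30 genes had passed the filter on low counts, so the sets are unlike in this. The motifs overlapped each other in 1 window, that of Fasn. A match of letters is a description and does not show binding.

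Brain libraries held 5669338 to 6675874 exon reads and neurosphere libraries 12382975 to 18636787, and the 37 genes had 35 to 7300 exon reads each in a brain library and 91 to 80784 in a neurosphere library. Atp6ap2 itself had 62.2, 48.6 and 54.0 CPM in CKO neurospheres, against 96.9, 96.6 and 95.1 CPM in control neurospheres (log2 fold change -0.81, edgeR adjusted p = 0.00965), and its difference in CKO brains was -0.12 (adjusted p = 0.792). Markers of radial glia and neural stem cells summed to 7058 to 7389 CPM in CKO neurospheres and 5631 to 6208 in control neurospheres, where Nes and Vim were above 0 in log2 fold change, the other 5 of 7 were below 0 and 0 were called. Neuron markers summed to 5579 to 5943 CPM in CKO brains and 6195 to 6584 in control brains. CPM, exon read counts relative to the library total, were scaled within each tissue with TMM factors. Libraries numbered 1 stood apart in both neurosphere groups. Control neurosphere library 1 held 1 read over 4 Y-linked genes, against 1767 to 2992 in the other 5 neurosphere libraries, although it is labelled male. Its counts differed from those of control libraries 2 and 3 with a chi-square per degree of freedom of 57.8 and 50.9, against 5.72 between those libraries. CKO neurosphere library 1 differed from CKO libraries 2 and 3 with 30.6 and 37.4, against 12.3 between those. In neurospheres the counts of calls on exon reads are also given without each of these libraries, and so are the values of several genes.

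The first comparison asks how the genes differ between CKO and control neurospheres. Of the 37 genes, 22 rose and 0 fell in CKO neurospheres, and 33 had a log2 fold change above 0 (edgeR quasi-likelihood test, two-sided, called at a Benjamini-Hochberg adjusted p under 0.05). Of all 13316 genes tested, 14.7% were called higher and 12.0% lower, and 48.5% had a log2 fold change above 0. The median log2 fold change was 0.62 over the 37 genes and -0.02 over all genes tested. In 27 of the 37 genes all 3 CKO libraries lay above all 3 control libraries, as did 25.3% of all genes tested, and in 0 they lay below, as in 22.8% of all genes. Since these are bulk cultures, fewer cells of a type and less RNA per cell cannot be told apart.

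**Figure D1:**
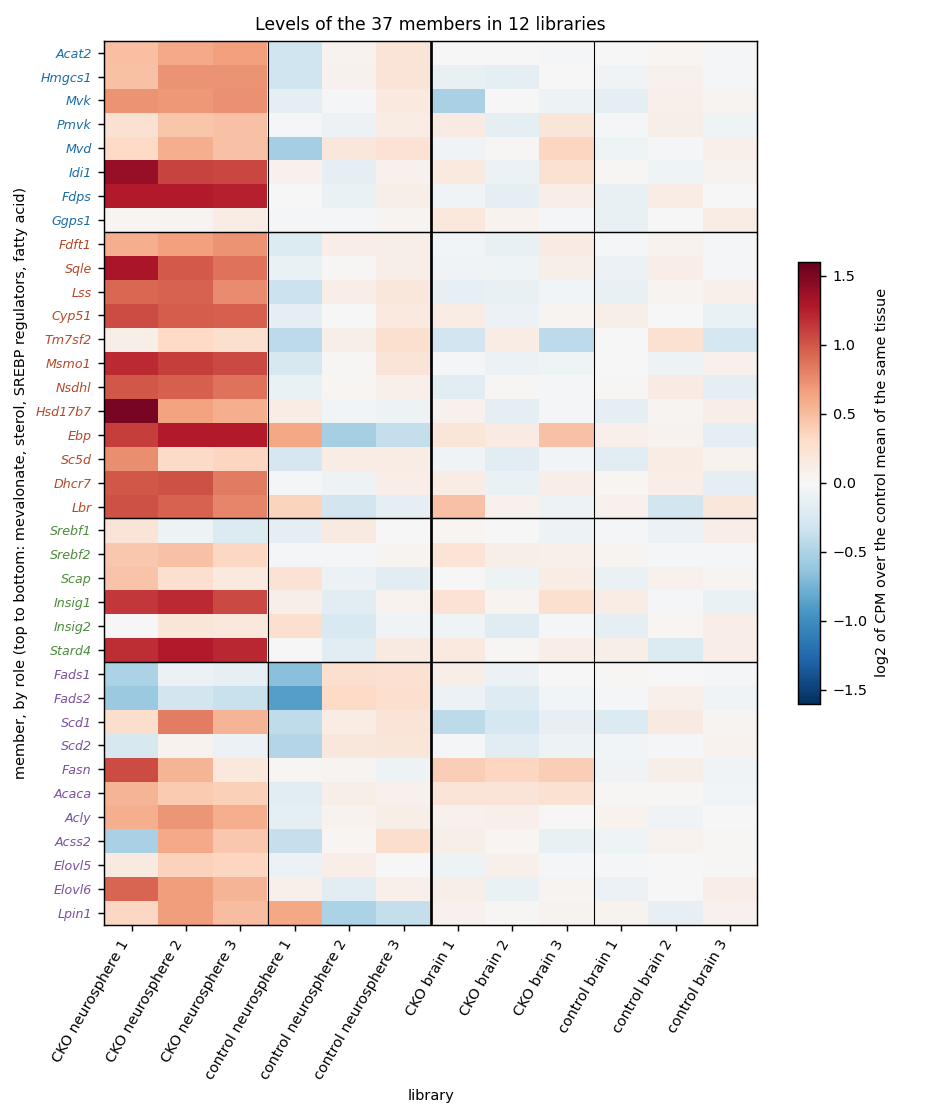
Normalised CPM of each of the 37 genes (rows, by role) in each of the 12 libraries (columns), as the log2 ratio to the control mean of the same tissue. Red fills the CKO neurosphere columns of most mevalonate and sterol genes, the brain columns stay pale, and control neurosphere library 1 is blue for Fads1, Fads2 and Scd2.

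Genes of the mevalonate and isoprenoid steps rose in 6 of 8 cases, with a median log2 fold change of 0.61. Fdps (ENSMUSG00000059743, chromosome 3, 17 exons listed) makes farnesyl diphosphate, the branch point to sterols and isoprenoids. It had 285, 285 and 281 CPM in CKO neurospheres, against 119, 109.8 and 127 CPM in control neurospheres. The CKO libraries lay close together and far above the controls, with a log2 fold change of 1.26 ± 0.09 (± SE throughout, 3 libraries in each group, edgeR adjusted p = 0.00754). Only 44.5% of the Fdps exon reads over the 12 libraries were uniquely placed, and the others matched more than 1 place in the genome. Counted on unique reads alone, the log2 fold change of Fdps was 1.29 (adjusted p = 0.0075).

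Idi1, which isomerises isopentenyl diphosphate, had 293, 236 and 234 CPM in CKO neurospheres, against 116, 101 and 117 CPM in control neurospheres. All CKO values lay far above the highest control value, and the log2 fold change was 1.19 ± 0.12 (edgeR adjusted p = 0.00795). Hmgcs1, which condenses acetyl units into HMG-CoA, had 1199, 1426 and 1420.0 CPM in CKO neurospheres, against 691, 905 and 1002 CPM in control neurospheres, where library 1 was lowest. The mevalonate kinase Mvk rose by a log2 fold change of 0.71, and the phosphomevalonate kinase Pmvk by 0.39. Without control library 1 Pmvk was not called (log2 fold change 0.36, edgeR adjusted p = 0.0590).

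Acat2, a thiolase that joins acetyl-CoA units, stood in the middle of this group. It had 212, 230.2 and 239 CPM in CKO neurospheres, against 122, 157 and 175 CPM in control neurospheres, without overlap (log2 fold change 0.58 ± 0.14, edgeR adjusted p = 0.0305). Of its exon reads 62.9% were unique, and on these the log2 fold change was 0.59 (adjusted p = 0.0249). The decarboxylase gene Mvd was not called. It had 69.4, 83.5 and 77.1 CPM in CKO neurospheres, against 38.2, 63.2 and 65.3 CPM in control neurospheres (log2 fold change 0.46 ± 0.21, adjusted p = 0.142). Its groups did not overlap, but control library 1 stood well below the other controls. Without that library the log2 fold change of Mvd was 0.25 (adjusted p = 0.118).

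Ggps1, which makes geranylgeranyl diphosphate for protein prenylation and is not on the route to sterols, had the smallest log2 fold change of this group. It had 47.2, 47.6 and 49.97 CPM in CKO neurospheres, against 45.1, 45.5 and 47.7 CPM in control neurospheres. The groups overlapped, with a log2 fold change of 0.07 ± 0.08 (adjusted p = 0.583).

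In the sterol steps 10 of 12 genes rose, with a median log2 fold change of 0.95. Their summed CPM was 1936, 1796 and 1714 in CKO neurospheres, against 878, 982 and 1052 in control neurospheres. The squalene synthase Fdft1, which commits farnesyl diphosphate to sterols, rose by a log2 fold change of 0.65. The epoxidase Sqle rose by 1.06, and the cyclase Lss, which closes the first sterol ring system, by 0.88.

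Among the demethylation steps, Cyp51 rose by a log2 fold change of 0.99 and Msmo1, a methylsterol oxidase, by 1.12. Msmo1 had 242, 228 and 220.1 CPM in CKO neurospheres, against 89.2, 107 and 122 CPM in control neurospheres, with a wide gap between the groups. The dehydrogenase Nsdhl had 105, 102 and 96.5 CPM in CKO neurospheres, against 48.9, 53.7 and 55.6 CPM in control neurospheres. Its log2 fold change of 0.94 ± 0.09 (edgeR adjusted p = 0.00795) was near the middle of the group. The next reductase, Hsd17b7, had 57.6, 31.3 and 29.97 CPM in CKO neurospheres, against 21.7, 19.4 and 19.0 CPM in control neurospheres. CKO library 1 stood far above the other CKO libraries, and the log2 fold change was 0.98 ± 0.27 (adjusted p = 0.0396). Without CKO library 1 it was 0.62 and still called. The call was lost without control library 2 or 3 or CKO library 2 or 3, at an adjusted p of up to 0.127.

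Ebp (ENSMUSG00000031168, chromosome X, 7 exons listed), the sterol isomerase, had 22.8, 25.4 and 25.4 CPM in CKO neurospheres, against 16.2, 7.33 and 8.10 CPM in control neurospheres. The groups did not overlap, and control library 1 lay about midway between the other controls and the CKO libraries. The log2 fold change was 1.22 ± 0.31 (edgeR adjusted p = 0.0335) with all libraries and 1.66 (adjusted p = 0.00137) without control library 1. With each library left out in turn it was 1.02 at the lowest, at an adjusted p of up to 0.113. Ebp kept its call in 9 of 14 alternatives. Dhcr7, the reductase that acts on the last sterol intermediate in a main branch of the route, rose by 0.95. Lbr, a nuclear envelope protein that is also a sterol reductase, rose by 0.92.

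Tm7sf2, a sterol reductase that acts on the same double bond as Lbr, was not called. It had 38.3, 44.7 and 42.8 CPM in CKO neurospheres, against 26.8, 38.3 and 42.8 CPM in control neurospheres, where libraries 2 and 3 reached the CKO range (log2 fold change 0.22 ± 0.18, edgeR adjusted p = 0.388). Without control library 1 the log2 fold change was 0.04 (adjusted p = 0.795). The desaturase Sc5d had 123, 90.8 and 93.6 CPM in CKO neurospheres, against 61.1, 79.5 and 79.7 CPM in control neurospheres, without overlap. Its log2 fold change was 0.48 ± 0.16 (adjusted p = 0.0713), so it did not pass the threshold, and without CKO library 1 the log2 fold change was 0.33.

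**Figure D2:**
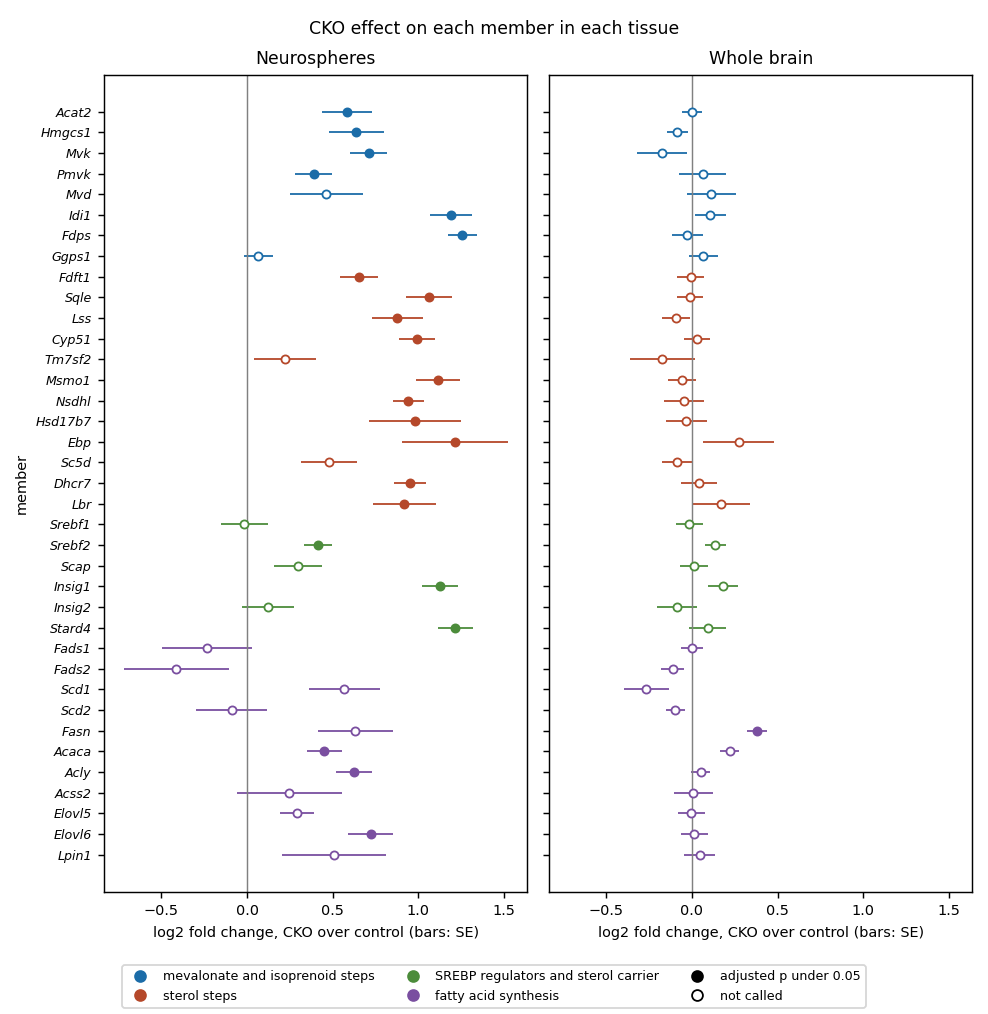
Log2 fold change of CKO over control for each of the 37 genes, in neurospheres (left) and whole brain (right), with bars for 1 SE and n = 3 libraries per group. Filled points mark genes called at an adjusted p under 0.05, which are 22 genes in neurospheres and Fasn alone in brain.

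The regulators divided, with 3 of 6 called higher and a median log2 fold change of 0.36. Insig1 (ENSMUSG00000045294, chromosome 5, 5 exons listed) had 431, 449 and 409.7 CPM in CKO neurospheres, against 211, 175 and 204 CPM in control neurospheres. Every CKO library held more than the highest control, and the log2 fold change was 1.13 ± 0.10 (edgeR adjusted p = 0.00754). Its paralog Insig2, which has the same anchoring role, had 25.9, 29.8 and 29.1 CPM in CKO neurospheres, against 30.9, 21.9 and 25.1 CPM in control neurospheres. There the groups overlapped (log2 fold change 0.12 ± 0.15, adjusted p = 0.574).

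Srebf2 had 433, 445 and 403 CPM in CKO neurospheres, against 317, 315 and 329 CPM in control neurospheres. The groups were separate, with a log2 fold change of 0.41 ± 0.08 (edgeR adjusted p = 0.0188). Srebf1 had 234, 191 and 174 CPM in CKO neurospheres, against 182, 222 and 201 CPM in control neurospheres. The control range lay inside the CKO range, and the log2 fold change was -0.02 ± 0.14 (adjusted p = 0.941). The counts cover the precursor messages only and hold no information on cleavage of either protein.

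Stard4, a cytosolic carrier of sterols between membranes, had 139.7, 149 and 142 CPM in CKO neurospheres, against 62.0, 55.0 and 68.0 CPM in control neurospheres. It rose by a log2 fold change of 1.22 ± 0.10 (edgeR adjusted p = 0.00754), with no overlap. Scap had 167, 147 and 135 CPM in CKO neurospheres, against 143, 114 and 108 CPM in control neurospheres. Control library 1 lay within the CKO range. The log2 fold change of Scap was 0.30 ± 0.14 (adjusted p = 0.148), and without control library 1 it was 0.42 (adjusted p = 0.0274).

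Fatty acid synthesis had the smallest share of genes called: 3 of 11 rose, and the median log2 fold change was 0.45, above that of the regulators. The genes that rose were at the start of the route and in chain elongation. Acly, which makes cytosolic acetyl-CoA from citrate, had 505, 554 and 505 CPM in CKO neurospheres, against 302, 351 and 361 CPM in control neurospheres. The groups did not overlap, and the log2 fold change was 0.62 ± 0.10 (edgeR adjusted p = 0.0131). Acaca, the acetyl-CoA carboxylase that makes malonyl-CoA, had 299, 276 and 268 CPM in CKO neurospheres, against 182, 218 and 215 CPM in control neurospheres (0.45 ± 0.10, adjusted p = 0.0253). Elovl6, which lengthens saturated and monounsaturated chains, had 229.8, 192 and 175 CPM in CKO neurospheres, against 127, 107 and 127 CPM in control neurospheres (0.72 ± 0.13, adjusted p = 0.0154). In both genes every CKO library exceeded every control.

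Fasn (ENSMUSG00000025153, chromosome 11, 48 exons listed), the fatty acid synthase, did not pass the test in neurospheres. It had 1491, 1051 and 811 CPM in CKO neurospheres, against 738, 744 and 682 CPM in control neurospheres. The groups were separate but the CKO libraries were widely spread, and the log2 fold change was 0.63 ± 0.22 (edgeR adjusted p = 0.0747). Without CKO library 1 it was 0.37 and not called, and without CKO library 3 it was 0.82 and called. Scd1, a desaturase that makes monounsaturated fatty acids, had 461, 669 and 553 CPM in CKO neurospheres, against 284, 412 and 438 CPM in control neurospheres (0.57 ± 0.21, adjusted p = 0.0845). Elovl5, an elongase of polyunsaturated chains, was not called either, with a log2 fold change of 0.29 (adjusted p = 0.0705). The acetyl-CoA synthetase Acss2 differed by 0.25 (adjusted p = 0.568), and by 0.03 without CKO library 2 to 0.52 without CKO library 1, with no call in either.

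The other desaturases lay on the opposite side of 0. Fads2, the delta-6 desaturase of polyunsaturated fatty acids, had 492, 606 and 582 CPM in CKO neurospheres, against 406, 931 and 899 CPM in control neurospheres. Control library 1 lay below all CKO libraries and the other controls above them. The log2 fold change was -0.41 ± 0.31 with all libraries (edgeR adjusted p = 0.342) and -0.72 without control library 1 (adjusted p = 0.00645). Fads1, the delta-5 desaturase, showed the same arrangement, with 485, 649 and 629 CPM in CKO neurospheres, against 434, 821 and 815 CPM in control neurospheres. Its log2 fold change was -0.23 ± 0.26 (adjusted p = 0.531), and -0.48 without control library 1 (adjusted p = 0.0437).

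Scd2, the main stearoyl-CoA desaturase of the brain, had 3584, 4444 and 4000.3 CPM in CKO neurospheres, against 3069, 4847 and 4878 CPM in control neurospheres. The groups overlapped, and the log2 fold change was -0.09 ± 0.21 (edgeR adjusted p = 0.767). Without control library 1 it was -0.29 (adjusted p = 0.123). Lpin1, a phosphatidate phosphatase of glycerolipid synthesis, had 157, 198 and 176 CPM in CKO neurospheres, against 191, 87.7 and 95.4 CPM in control neurospheres. Here control library 1 lay inside the CKO range, far above the other controls, and the log2 fold change was 0.51 ± 0.30 with all libraries (adjusted p = 0.242) and 0.94 without it (adjusted p = 0.00363).

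**Figure D3:**
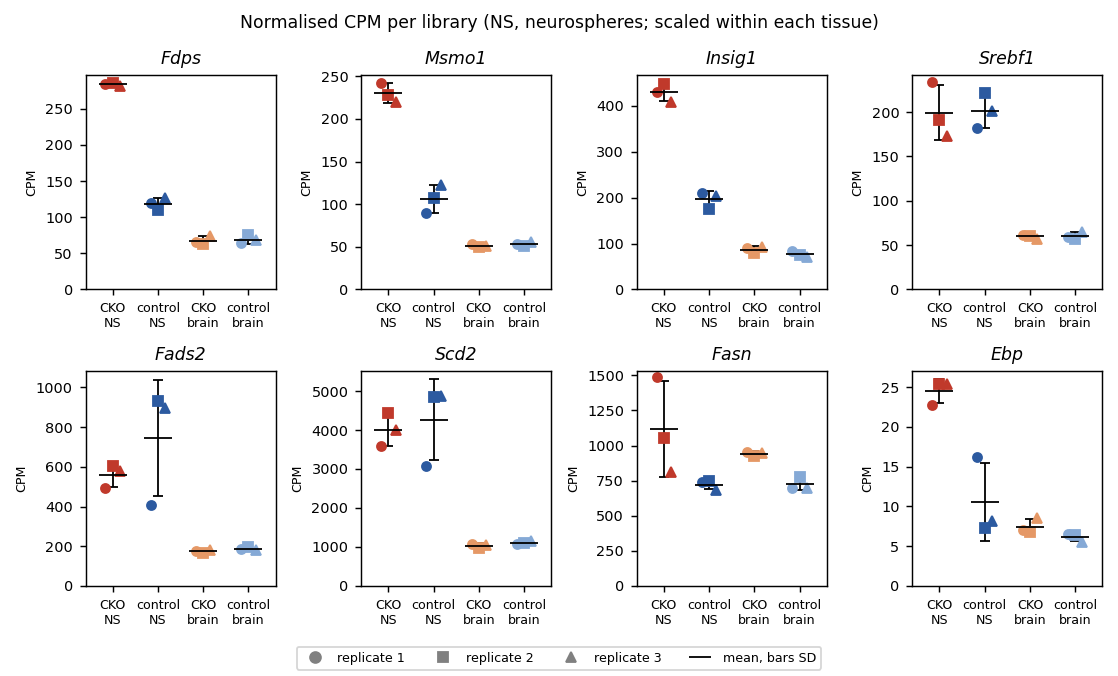
Normalised CPM of 8 genes in every library, with symbols for the replicate number, a line for the mean and bars for the SD over 3 libraries. Fdps, Msmo1 and Insig1 separate CKO from control neurospheres, Srebf1 does not, Fads2 and Scd2 are low in control neurosphere library 1, and Fasn separates CKO from control in both tissues.

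Without control neurosphere library 1, 23 of the 37 genes were called higher and 2 lower, with a median log2 fold change of 0.54, while 21.1% of all genes tested were called higher and 17.7% lower. Without CKO library 1, 21 were called higher and 0 lower, with a median of 0.62, beside 1598 of all genes higher and 1588 lower. Without control library 2, 12 were called higher and 0 lower, beside 532 of all genes higher and 266 lower. Leaving out control library 3 or CKO library 2 ended every call among all genes, at a lowest adjusted p of 0.0570 without control library 3 and 0.0569 without CKO library 2. At an unadjusted p under 0.05, 25 of the 37 genes were still higher without control library 3 and 24 without CKO library 2. The share of all genes at that unadjusted p is not given here, so these counts have no background beside them. In the 12 other alternatives run, 12 genes kept their call in each (Mvk, Idi1, Fdps, Fdft1, Sqle, Lss, Cyp51, Msmo1, Nsdhl, Dhcr7, Insig1 and Stard4). The authors' deposited table lists 20 of the 37 genes as higher and 0 as lower at an FDR under 0.05 in neurospheres, among them Fasn (FDR 0.0449). The share of all genes that it lists at that FDR is not given here.

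Levels of proliferation genes and of other cell types moved in the same libraries. All 10 proliferation genes listed were called higher, with summed CPM of 2988, 3052 and 2968 in CKO neurospheres, against 1566, 625 and 971 in control neurospheres. Of 9 oligodendrocyte lineage markers 6 were called lower, as were 5 of 8 neuron markers and 2 of 6 astrocyte markers. The oligodendrocyte lineage markers summed to 1530.2 to 1710.0 CPM in CKO neurospheres and 1839 to 3131 CPM in control neurospheres. Fibroblast and mural markers summed to 162, 54.5 and 1444 CPM in CKO neurospheres, against 22.1, 62.1 and 45.2 CPM in control neurospheres. Endothelial markers summed to 5.64 to 8.34 CPM in CKO neurospheres and 4.83 to 6.33 in control neurospheres, and microglia markers to 0.715 to 3.94 CPM in CKO neurospheres and 0.460 to 0.967 in control neurospheres. None of the listed markers was at 0 reads in all libraries of a group. Their part in the changes of the sterol and fatty acid genes was not tested.

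Reads inside the genes but outside their exons gave a readout of the same genes that does not use exon reads. Of the 37 genes 5 rose on these reads in CKO neurospheres and 0 fell, while 1.19% of all 11967 genes tested were called higher and 0.777% lower. Of the 37 genes 32 were above 0 on the log2 scale, as were 48.4% of all genes. The median log2 fold change was 0.66 over the 37 genes and -0.02 over all genes tested, and 23 genes had all CKO libraries above all controls, against 14.6% of all genes, and 0 had them below, against 13.9%. The genes that rose were Hmgcs1, Fdps, Insig1, Stard4 and Lbr.

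Outside its exons Insig1 had 265, 209 and 202 CPM in CKO neurospheres, against 104, 88.5 and 72.4 CPM in control neurospheres. The groups were separate, and the log2 fold change on these reads was 1.35 ± 0.19 (edgeR adjusted p = 0.0385), beside 1.13 on exon reads. Stard4 had 43.5, 52.9 and 48.6 CPM outside exons in CKO neurospheres, against 12.6, 23.8 and 14.2 CPM in control neurospheres (1.55 ± 0.28, adjusted p = 0.0445). Hmgcs1 had 109, 116 and 126 CPM outside exons in CKO neurospheres, against 60.3, 52.4 and 52.8 CPM in control neurospheres (1.08 ± 0.16, adjusted p = 0.0385). None of these groups overlapped.

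Fads2 and Fads1 had log2 fold changes of -0.25 and -0.06 on reads outside exons, with no call. The calls on these reads ended when control library 2 or 3 or CKO library 2 or 3 was left out, with 20 to 22 of the 37 genes higher at an unadjusted p under 0.05. The share of all genes at that unadjusted p is not given here. Without control library 1, 14 of the 37 were called higher and 0 lower, beside 8.52% of all genes called higher and 6.48% lower. Of all gene reads, 7.64 to 10.5% lay outside exons in CKO neurospheres, against 9.18 to 14.1% in control neurospheres. In the brain libraries 63.8 to 65.5% lay outside exons, so the tissues differ widely in this share.

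**Figure D4:**
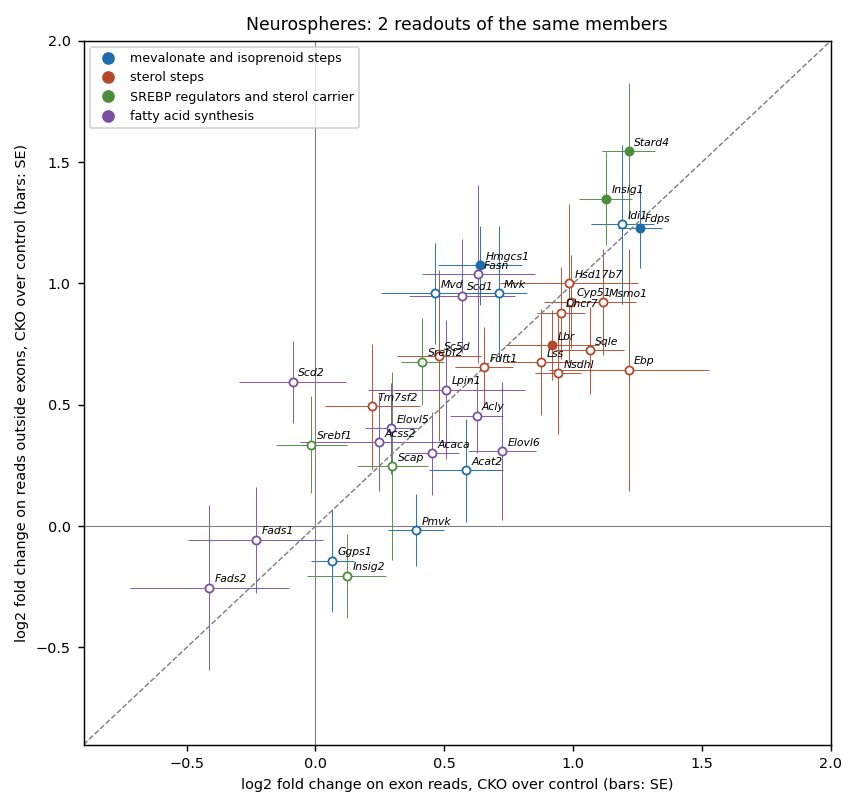
Log2 fold change of CKO over control neurospheres for each of the 37 genes, on exon reads (horizontal axis) and on reads outside exons (vertical axis), with bars for 1 SE and a dashed line where both are equal. Filled points mark the 5 genes called on reads outside exons, and Scd2 lies above the line at -0.09 on exon reads and 0.59 on reads outside exons.

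Other genes next to the pathway were counted in lists chosen by function, to be read against the 14.7% of all genes tested that were called higher and the 12.0% called lower. Of 13 genes of sterol sensing and SREBP processing, 1 rose in CKO neurospheres and 0 fell. It was Tmem97, an endoplasmic reticulum protein tied to sterol transport, with 77.8, 73.4 and 60.6 CPM in CKO neurospheres, against 26.6, 19.1 and 23.4 CPM in control neurospheres (log2 fold change 1.62 ± 0.16, edgeR adjusted p = 0.00795). The median log2 fold change of this list was 0.05. Of 14 genes on branches of the mevalonate pathway 3 rose and 1 fell, with a median of 0.29. Pdss1, which starts the ubiquinone side chain, rose by 1.40, and Rabggta, a subunit of a prenyl transferase for Rab proteins, fell by 0.47 on the log2 scale.

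Of 28 other fatty acid and glycerolipid enzymes 5 rose and 2 fell, with a median log2 fold change of 0.10. Acsl5, which activates fatty acids with CoA, rose by 1.17, and the elongase Elovl7 fell by 1.55 on the log2 scale. Of 20 genes of fatty acid oxidation 1 rose and 2 fell, with a median of -0.19. Acadl, a long-chain acyl-CoA dehydrogenase, rose by 0.45, and Acaa2, a mitochondrial thiolase, fell by 0.80. Of 11 genes of sterol export, storage and oxidation 10 were tested, of which 0 rose and 2 fell, with a median of -0.34.

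Cyp46a1, which turns cholesterol of neurons into an oxysterol that leaves the brain, had 13.2, 9.63 and 9.96 CPM in CKO neurospheres, against 19.8, 41.8 and 37.4 CPM in control neurospheres. The groups did not overlap, and control library 1 was the lowest control (log2 fold change -1.59 ± 0.30, edgeR adjusted p = 0.0167). The transporter gene Abcg4, which exports sterols to lipoproteins, fell by 0.47 on the log2 scale.

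The brain comparison asks the same of whole embryonic brains. Fasn alone was called among the 37 genes, so that 1 gene was higher and 0 lower, while 0.243% of all 13557 genes tested were called higher and 0.199% lower. A log2 fold change above 0 was found in 19 of the 37 genes and in 50.9% of all genes. The log2 fold changes of the 37 genes ran between -0.27 for Scd1 and 0.38 for Fasn, with a median of 0.00 over these genes and 0.00 over all genes tested. In 4 genes all CKO brains lay above all control brains, against 7.24% of all genes tested, and in 0 below, against 7.16%. At an unadjusted p under 0.05, 3 genes were higher and 0 lower, without the share of all genes at that p to set beside them.

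Fasn had 957, 923 and 949 CPM in CKO brains, against 699.9, 775 and 700.1 CPM in control brains. The groups were clearly separate, and the log2 fold change was 0.38 ± 0.06 (edgeR adjusted p = 0.0244). DESeq2, unique reads and junction reads also called it. The call ended without control brain library 1 or 3 or CKO brain library 2 or 3, and in the fit of all 12 libraries. Over the libraries left out in turn the log2 fold change of Fasn ran between 0.35 and 0.43 and the adjusted p between 0.0278 and 0.152. On reads outside exons Fasn differed by 0.09 (adjusted p = 0.921).

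Acaca, the step before Fasn, had 333, 332 and 342 CPM in CKO brains, against 293, 292 and 280.1 CPM in control brains. The groups did not overlap, but the log2 fold change of 0.22 ± 0.05 did not pass the threshold (edgeR adjusted p = 0.155). On exon-exon junction reads it was 0.32 (adjusted p = 0.0339). Srebf2 and Ebp were the other genes without overlap. Srebf2 had 305, 279 and 277 CPM in CKO brains, against 269, 257 and 258 CPM in control brains (0.14 ± 0.06, adjusted p = 0.554).

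None of the genes of the sterol steps that rose in neurospheres was called in brain. Most lay close to 0, while Ebp at 0.27 and Lbr at 0.17 lay furthest from it. Fdps had 66.2, 62.3 and 74.5 CPM in CKO brains, against 63.7, 74.7 and 68.7 CPM in control brains (log2 fold change -0.03 ± 0.09, edgeR adjusted p = 0.968). Counted on unique reads alone, the log2 fold change of Fdps in brain was -0.20 (edgeR adjusted p = 0.725). Msmo1 had 52.8, 50.1 and 50.7 CPM in CKO brains, against 53.5, 50.4 and 56.1 CPM in control brains (-0.06 ± 0.08, adjusted p = 0.909). On all exon reads both pairs of groups overlapped. Insig1 had 90.2, 79.2 and 91.6 CPM in CKO brains, against 83.4, 75.4 and 71.1 CPM in control brains (0.18 ± 0.09, adjusted p = 0.60), with 1 CKO library inside the control range.

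At the ends of the range, Mvd had 15.95, 16.9 and 21.2 CPM in CKO brains, against 15.9, 16.3 and 17.7 CPM in control brains, and overlapped (0.11 ± 0.14). Mvk had 17.3, 24.9 and 23.5 CPM in CKO brains, against 22.4, 26.3 and 25.5 CPM in control brains, with CKO library 1 lowest (-0.17 ± 0.15). Scd1 had 22.0, 24.1 and 26.8 CPM in CKO brains, against 25.2, 32.3 and 30.3 CPM in control brains, with 1 CKO library above the lowest control (-0.27 ± 0.13, adjusted p = 0.616).

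Ebp had 7.03, 6.75 and 8.51 CPM in CKO brains, against 6.52, 6.39 and 5.52 CPM in control brains, without overlap (0.27 ± 0.21, edgeR adjusted p = 0.805). Tm7sf2 had 11.7, 15.6 and 10.8 CPM in CKO brains, against 14.3, 17.03 and 11.8 CPM in control brains, with overlap (-0.17 ± 0.19). Insig2 had 26.2, 24.1 and 27.1 CPM in CKO brains, against 24.7, 28.0 and 29.6 CPM in control brains (-0.09 ± 0.12). Apart from Ebp, the groups of these genes could not be separated.

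Of the neighbouring lists, 1 gene was called in brain. Rnf145, a ubiquitin ligase of sterol sensing, had 233, 233 and 214 CPM in CKO brains, against 168, 149 and 153 CPM in control brains. The groups were separate, with a log2 fold change of 0.53 ± 0.07 (edgeR adjusted p = 0.0110). On reads outside exons 0 of the 37 genes were called in brain, where 0.143% of all genes were called higher and 0.164% lower, and 0 of the 37 had an unadjusted p under 0.05. Above 0 on these reads were 22 of the 37 genes and 50.6% of all genes. Fads2 and Scd2 had all CKO brains below all control brains, as did 6.73% of all genes, and 0 of the 37 had them above, against 5.93%. In the same libraries 2 astrocyte markers and 1 radial glia marker were called lower and 0 of 10 proliferation genes were called, and the part of these cell types in the brain values was not tested.

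The difference between the CKO effects was tested itself, as the effect in neurospheres minus that in brain in 1 fit of all 12 libraries. It was called above 0 in 16 of the 37 genes and below 0 in 0, while 7.21% of all 14415 genes tested were called above 0 and 6.06% below. The difference had a value above 0 in 35 of the 37 genes and in 48.9% of all genes. The median difference on the log2 scale was 0.59 over the 37 genes and -0.02 over all genes. The calls comprised 5 of 8 mevalonate genes, 7 of 12 sterol genes, 2 of 6 regulators and carriers, and 2 of 11 genes of fatty acid synthesis. Atp6ap2 itself was called lower in CKO neurospheres and not called in CKO brains, and its part in these differences was not tested.

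Fdps had the highest difference, 1.29 ± 0.13 on the log2 scale (edgeR adjusted p = 0.00148), followed by Msmo1 with 1.18 ± 0.15 and Stard4 with 1.13 ± 0.15 (adjusted p = 0.00300 each). Fasn, the gene called in brain, had a difference of 0.26 ± 0.24 (adjusted p = 0.490), so its effects in the tissues were not shown to differ. Srebf1 had a difference of 0.00 ± 0.16 (adjusted p = 0.993). In all 18 alternatives 14 of the 16 genes kept the call, while Acat2 kept it in only 7 of the 18 and Hmgcs1 in 11. Without control neurosphere library 1, 20 genes were called above 0 and 2, Fads1 and Fads2, below 0, beside 13.2% and 14.9% of all genes.

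Control neurospheres were set against control brains to give the levels without the CKO. Of the 37 genes 28 were higher and 3 lower in control neurospheres, where 34.9% of all 14415 genes tested were higher and 35.5% lower. All control neurosphere libraries lay above all control brains in 27 of the 37 genes and below in 2, against 36.3% and 38.0% of all genes. The log2 fold change was above 0 in 32 of the 37 genes and in 49.6% of all genes. Its median was 0.82 over the 37 genes and -0.01 over all genes. Scd1 differed most, with a log2 fold change of 3.85 ± 0.20 (edgeR adjusted p = 4.81e-08). Fads1 at 2.26 ± 0.22, Fads2 at 2.14 ± 0.25, Scd2 at 2.10 ± 0.16 and Acss2 at 2.09 ± 0.26 followed and did not differ from each other beyond their SE.

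The 3 genes lower in control neurospheres were Ggps1 with a log2 fold change of -0.61 ± 0.08 (edgeR adjusted p = 4.32e-05), Lbr with -0.46 ± 0.19 (0.0440) and Acaca with -0.34 ± 0.08 (0.00362). Sqle, Fasn, Acly, Sc5d, Hsd17b7 and Insig2 were not called, with log2 fold changes between -0.18 and 0.14. The tissues differ in day, in culture, in cell makeup and in the share of gene reads outside exons, and these cannot be told apart. All 20 genes of fatty acid oxidation were higher in control neurospheres, with a median of 2.17.

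Levels between genes were compared per kilobase of exon, with all 12 libraries scaled together. Scd2 had the highest level in every group, at 774 ± 83.3 CPM per kb in CKO neurospheres, 824 ± 205 in control neurospheres, 179 ± 8.29 in CKO brains and 192 ± 5.90 in control brains (SD, n = 3). Hmgcs1 followed at 390 ± 37.1 in CKO neurospheres and 251 ± 47.7 in control neurospheres, where Fads2 at 247 ± 98.9 could not be separated from it by the spread. Fads2 (185 ± 19.7), Fdps (168 ± 1.84), Insig1 (168 ± 8.03) and Fads1 (166 ± 25.2) followed in CKO neurospheres and did not differ from each other beyond their SD.

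At the low end, Hsd17b7 had 8.28 ± 3.26 CPM per kb in CKO neurospheres and 4.19 ± 0.269 in control neurospheres. Insig2 (9.88 ± 0.712) and Ggps1 (10.8 ± 0.307) were next to it in CKO neurospheres and lay within its SD. Ebp had 4.03 ± 0.517 CPM per kb in CKO brains and 3.35 ± 0.315 in control brains, the lowest mean of the 37 genes in both brain groups. Scd1 had 121 ± 22.5 CPM per kb in CKO neurospheres and 81.6 ± 18.3 in control neurospheres, but 4.69 ± 0.483 in CKO brains and 5.68 ± 0.711 in control brains. Its paralog Scd2 was thus the more abundant message per length in all 4 groups.

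**Figure D5:**
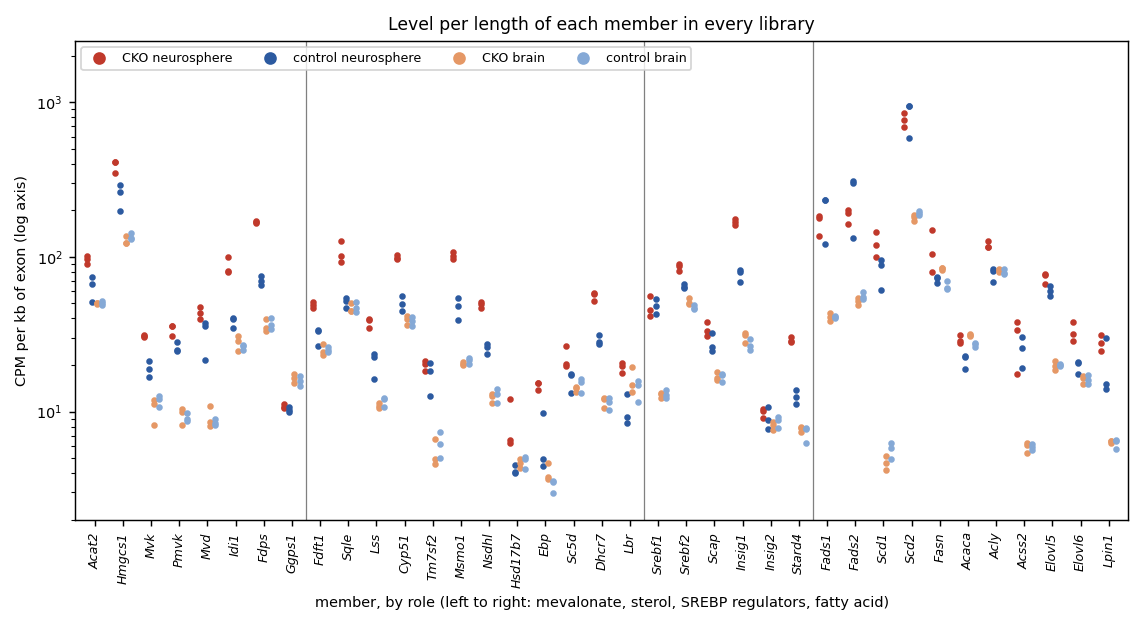
Level of each of the 37 genes in every library as CPM per kb of exon (log axis), with 1 point per library and all 12 libraries scaled together. Scd2 is highest in all 4 groups, and Scd1 lies above 60 CPM per kb in every neurosphere library and below 7 in every brain library.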

How the data were processed

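Total RNA depleted of ribosomal RNA was sequenced from directional libraries, per the labels' protocols. The authors deposited 2 tables, whose raw read counts per gene over exons, over introns and across exon junctions are used here, per the file headers. Their own p-value and FDR columns and their signed fold score come from the authors' test and are quoted only where named. The submitters' processing notes name GRCm38 (mm10), but the gene positions deposited with the counts do not match the GRCm38.p6 promoter windows. Hmgcs1 is listed from base 120151914 of chromosome 13, while its window ends at 119690400. Msmo1, on the minus strand, is listed up to base 65186826 of chromosome 8, while its window ends at 64733828. Which assembly the counts rest on is thus unsettled, and it may differ from that of the windows. Not given in the sources used here are the aligner, the annotation release and any use of strand in counting. A further 120 columns of per-sample values were not used.

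Exon read counts were tested with edgeR 4.0.16 (quasi-likelihood, robust, TMM scaling, filterByExpr, two-sided, Benjamini-Hochberg over all genes tested, threshold 0.05) in R 4.3.3, per tissue. The difference of effects and the comparison of control tissues came from 1 fit of 12 libraries. SE is the log2 fold change divided by the root of F. CPM were TMM-scaled. DESeq2 1.42.0, other scaling, no filter, unique or junction reads, a replicate block and left-out libraries were alternatives. The fits were tested on simulated counts with the same dispersion for every gene and library. That setting was not matched to the spread in either tissue, so it does not show how reliable these calls are. Reads outside exons are the deposited intron read counts of each gene. Depth per library is given with the results. The members and lists were chosen with earlier results of these data known. All 37 genes are named, with values in every library for the genes with the largest, median and smallest log2 fold change of each role in neurospheres and the largest and smallest in brain, and for others that a result turns on, chosen after their values were seen.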

Additional observations from a re-analysis of the deposited data

Results flagged for a closer look

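The CKO effect differed between neurospheres and brain in 16 of the 37 genes by a test of the difference itself (edgeR interaction contrast over 12 libraries, adjusted p between 0.00148 and 0.0367). All 16 differences were above 0. Acat2 kept its call in only 7 of 18 alternatives and Hmgcs1 in 11. Among the mevalonate genes, the effect in neurospheres minus that in brain was 0.59 on the log2 scale for Acat2, 0.73 for Hmgcs1, 0.89 for Mvk, 1.09 for Idi1 and 1.29 for Fdps. Among the sterol genes it was 0.67 for Fdft1, 1.08 for Sqle, 0.98 for Lss, 0.97 for Cyp51, 1.18 for Msmo1, 1.00 for Nsdhl and 0.92 for Dhcr7. For the regulator Insig1 it was 0.95 and for the carrier Stard4 1.13. In fatty acid synthesis it was 0.58 for Acly and 0.72 for Elovl6. The tissues also differ in day, in culture, in sequencing depth and in the share of gene reads outside exons. The targeted gene Atp6ap2 was itself called lower in CKO neurospheres and not called in CKO brains. These differences cannot be told apart from tissue here.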

How the results depend on the processing

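None of the log2 fold changes that had been called changed sign under an alternative. In neurospheres the number of the 37 genes called, 22, became 0 to 25 when 1 library was left out (12 without control library 2, 0 without control library 3 or CKO library 2), and other alternatives gave 21 to 33. The 33 came with both libraries numbered 1 left out, where 3740 of all genes were called higher and 3633 lower. Without control library 2 these were 532 and 266, and with all libraries 1958 and 1595. In brain the 1 call became 0 to 1 when 1 library was left out. It was 2 on junction reads, 0 in the fit of all 12 libraries (lowest adjusted p of the 37 genes 1.00) and 0 with both libraries numbered 1 left out. On reads outside exons in neurospheres the 5 calls became 0 to 14 when 1 library was left out and 17 with the replicate block. Leaving out a library also leaves fewer samples for the spread. The difference between tissues was called in 14 to 24 genes, and control neurospheres against control brain in 27 to 33. Over all genes the difference was called above 0 in 477 to 2194 and below 0 in 369 to 2718. For the control tissues 4635 to 5390 of all genes were called higher and 4629 to 5402 lower.

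Replicate numbers are shared between groups in the labels, which do not say what a number marks. Deviations from the group mean were correlated between CKO and control libraries. For the same number the correlations were 0.26, -0.03 and 0.26 in neurospheres and 0.42, 0.20 and -0.04 in brain. For unlike numbers they ran between -0.36 and 0.23 in neurospheres and between -0.38 and 0.24 in brain. Whether a number marks a pair is not known, and the main fits treated libraries as unpaired. With the replicate block, 25 genes were called in neurospheres, 1 in brain, 19 for the difference between tissues, 29 for the control tissues, 17 on reads outside exons in neurospheres and 0 in brain. Over all genes the block called 2072 higher and 1753 lower in neurospheres, and 108 and 85 in brain. For the difference between tissues these were 1309 and 1107, and for the control tissues 4635 and 4629. On reads outside exons they were 720 and 620 in neurospheres, against 142 and 93 in the main fit, and 59 and 80 in brain.

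With 3 libraries per group, small differences could not be called, and the lowest member had 35 exon reads in a brain library. The planned comparison of paralog proteins was not run.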

Other observations

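Scd2 differed between readouts in neurospheres. Outside exons it had 252, 216 and 212 CPM in CKO neurospheres, against 125, 168 and 159 CPM in control neurospheres, without overlap (log2 fold change 0.59 ± 0.17, edgeR adjusted p = 0.0952), while on exon reads the groups overlapped at -0.09 ± 0.21. Ggps1 had a log2 fold change of 0.58 on junction reads in neurospheres (adjusted p = 0.0538), beside 0.07 on exon reads. Gpam, which starts glycerolipid synthesis, was lower in CKO neurospheres by a log2 fold change of -1.09 (adjusted p = 0.0221), while Lpin1, further along the same route, was at 0.51 (adjusted p = 0.242).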
